A study of Mus musculus with 5 samples.

Results

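The 3 Gadd45 genes of the mouse, Gadd45a, Gadd45b and Gadd45g, were followed in epiblast stem cells under short inhibition or stimulation of signalling. All probes that the platform annotation assigns to these symbols were taken, which gave 5 probes (2 for Gadd45a, 1 for Gadd45b and 2 for Gadd45g) for 3 of the 16593 genes with a named probe. The genes were chosen by their measured differences on the arrays with the MEK inhibitor, where Gadd45a was lower and the paralogs were higher. Those differences are therefore given as a description without a test.

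Gadd45 stands for growth arrest and DNA damage. The family consists of small acidic proteins without known enzymatic activity that act by binding others, among them the kinase MAP3K4 upstream of p38 and JNK, the proliferation clamp PCNA, the CDK inhibitor p21 and the complex of CDK1 with cyclin B1. Gadd45a is a classical p53 target induced by DNA damage. Gadd45b was found as a myeloid differentiation response gene and is induced by TGF-beta and NF-kappaB signalling. Gadd45g was found as a cytokine response gene, and all 3 proteins have been linked to DNA demethylation during differentiation.

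The cells were the line E3, with a hybrid genetic background, grown over CF1 feeder fibroblasts that had been inactivated, in a KSR-based medium with 5 ng/ml FGF2. At semiconfluence each culture received 1 of 5 KSR media for 3 h. The untreated culture got no supplement, so the FGF2 named for the preceding medium is not named for it. The PD culture got 1 uM PD0325901, an inhibitor of MEK (the kinase that activates ERK), the CH culture 3 uM CHIR99021, an inhibitor of the kinase GSK3, the LIF culture 1000 U/ml of the cytokine LIF, and the PCL culture these agents together at the same doses. Each medium was measured on 1 array of total RNA from a single line, so a difference between 2 conditions has no replicate check and carries no p-value. Every comparison with the untreated culture shares the same untreated array.

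On the 5 arrays between 39.4% and 42.7% of the 25697 probes were detected, at a detection p-value under 0.01. Scanner signals were higher on the untreated array, whose 75th percentile was 178 (137 to 153 with agents). The agents' known target genes moved, since on the log2 scale the ERK target Egr1 differed by -3.68 ± 0.13 (bead-level SE, 1 array per group) and the ERK phosphatase Dusp6 by -1.48 ± 0.06 with PD, the beta-catenin target Axin2 by 1.18 ± 0.08 with CH and the STAT3 feedback inhibitor Socs3 by 1.95 ± 0.07 with LIF. These genes also moved with other agents. Egr1 and Dusp6 were lower than untreated with CH (-0.79 ± 0.08 and -0.33 ± 0.05) and with LIF (-1.30 ± 0.09 and -0.35 ± 0.07). Axin2 was lower with PD (-0.33 ± 0.10) and LIF (-0.31 ± 0.09), and Socs3 with PD (-0.86 ± 0.15). All 10 epiblast markers examined were detected on every array, among them Pou5f1, Nanog and Sox2. Of 15 fibroblast markers 9 were detected and 6 (Col1a2, Col3a1, Col5a2, S100a4, Postn and Pdgfrb) were not detected on any array, so transcripts typical of fibroblasts were present. Fewer cells of a type and less RNA per cell cannot be told apart in such bulk RNA.

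The levels below are log2 normalised intensities, which include an added constant of 16, and the error is the bead-to-bead standard error of a reading carried to that scale. It covers the reading of the array and leaves out culture, extraction and hybridisation.

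Gadd45a had the highest level of its family's probes on the arrays without PD, although levels of different probes also depend on the probes themselves. Its brighter probe, ILMN_2742152, read 8.79 ± 0.06 on the untreated array, 8.68 ± 0.09 with CH, 8.46 ± 0.09 with LIF, 7.76 ± 0.12 with PD and 7.70 ± 0.13 with PCL. Both arrays with PD were thus lower than each of the 3 arrays without it. The difference from untreated was -1.03 ± 0.13 with PD (2.04-fold lower) and -1.10 ± 0.14 with PCL (2.14-fold lower). Between the PD and PCL arrays it was -0.06 ± 0.18, less than its bead-level error. Gadd45a was under 2-fold lower with PD without background correction (-0.81), with a larger offset (-0.93), relative to the median of untreated, CH and LIF (-0.92) and against the mean of CH and LIF (-0.81).

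The second Gadd45a probe, ILMN_2947568, read 7.85 ± 0.10 untreated, 7.81 ± 0.08 with CH, 7.89 ± 0.07 with LIF, 7.18 ± 0.09 with PD and 7.02 ± 0.10 with PCL. It gave the same order of the arrays with and without PD. Its differences were smaller, -0.67 ± 0.14 with PD and -0.83 ± 0.15 with PCL, and neither reached 2-fold. The gap between the probes with PD was 0.36 ± 0.19, against a median gap of 0.161 and a 90th percentile of 0.437 over 1703 genes with 2 probes detected on both arrays. The probes also differed for LIF, where the brighter one was lower than untreated (-0.33 ± 0.10) and the other was not (0.04 ± 0.12).

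Gadd45g moved the opposite way. Its brighter probe, ILMN_2903945, read 7.24 ± 0.09 on the untreated array, 7.48 ± 0.06 with CH, 7.08 ± 0.07 with LIF, 8.60 ± 0.07 with PD and 8.81 ± 0.06 with PCL. The arrays with PD lay well above the rest, and the levels without PD spanned 0.40 on the log2 scale between LIF and CH. The difference from untreated was 1.36 ± 0.11 with PD (2.56-fold higher) and 1.57 ± 0.11 with PCL (2.96-fold higher). PCL exceeded PD by 0.21 ± 0.09 on this probe.

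The other Gadd45g probe, ILMN_2744890, was near the detection limit. It read 5.21 ± 0.16 with CH, 5.22 ± 0.16 with LIF, 6.19 ± 0.11 with PD and 6.06 ± 0.10 with PCL, and was not detected on the untreated array, where it read 4.69 ± 0.16. Against the lowest level detected on the untreated array it was at least 2.46-fold higher with PD and at least 2.25-fold higher with PCL. Such bounds, here and below, leave out the bead error of the readings. Both probes were thus higher with PD and PCL than untreated, and how closely they matched in size cannot be read against an undetected reading. Between PCL and PD, where both arrays were detected, this probe went the other way from the brighter one, at -0.13 ± 0.15. With LIF it was at least 1.25-fold higher than untreated, from a scanner signal 1.07 times the untreated one, while the brighter probe was lower (-0.16 ± 0.11). The 2 probes thus give no common direction for Gadd45g with LIF.

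Gadd45b, with a single probe, ILMN_2900653, was dim but detected on all arrays. It read 5.65 ± 0.11 untreated, 5.67 ± 0.11 with CH, 5.92 ± 0.09 with LIF, 6.54 ± 0.10 with PD and 6.62 ± 0.07 with PCL. As for Gadd45g, both arrays with PD were above the others. The difference from untreated was 0.89 ± 0.15 with PD (1.85-fold higher) and 0.97 ± 0.13 with PCL (1.95-fold higher), and PCL exceeded PD by only 0.08 ± 0.12.

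The size of the Gadd45b difference depended on how the background was treated. Its scanner signals were 129 untreated, 142 with PD, 109 with CH, 126 with LIF and 154 with PCL, while undetected probes had medians of 78.1 to 83.2. The signal on the PD array was 1.10 times that on the untreated array, while its rank among all probes of the array went from the 68.0th to the 75.9th percentile. Without background correction the log2 difference with PD was 0.41, and in the authors' deposited processed intensities, which were 35 untreated and 78 with PD, it was 1.16. The direction was the same under each of these settings.

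**Figure D1:**
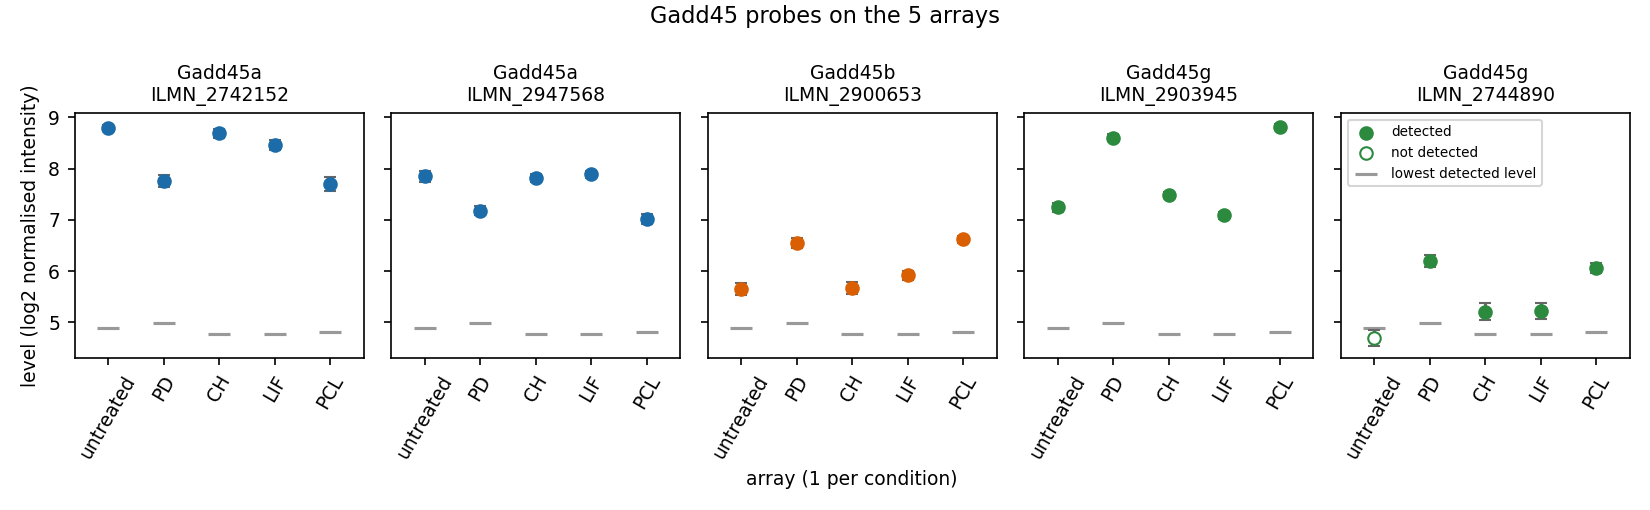
Level of each Gadd45 probe (y axis, log2 normalised intensity) on each of the 5 arrays (x axis, 1 array per condition). Bars are bead-level standard errors, the open circle marks a reading that was not detected, and grey dashes give the lowest detected level of each array. Both Gadd45a probes were lower on the PD and PCL arrays than on the other 3, and the probes of Gadd45b and Gadd45g were higher there.

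In order of level on the untreated array the probes used for the genes ran Gadd45a, Gadd45g, Gadd45b, and on the PD and PCL arrays Gadd45g read highest. The change between paralogs can be given within an array. The background correction, the added constant and the normalization act differently at different intensities, so their effects do not cancel between the probes. Relative to the untreated array, Gadd45g against Gadd45a shifted by 2.39 ± 0.17 on the log2 scale with PD and by 2.66 ± 0.18 with PCL. The corresponding shift was 0.35 ± 0.15 with CH and 0.18 ± 0.15 with LIF.

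Among the 7575 genes detected on the PD or the untreated array, 0.145% were at least 2-fold higher with PD and 0.66% at least 2-fold lower. Gadd45g ranked 3 from the top of all these differences, Gadd45b 23 from the top and Gadd45a 46 from the bottom. With PCL 0.372% of 7792 genes were at least 2-fold higher and 0.77% at least 2-fold lower, and the ranks were 5 and 32 from the top and 38 from the bottom. Both PD arrays lay above the 3 others for 11.3% of 8353 genes and below them for 11.4%, and the members lay on these sides 2 and 1 times. These positions follow from how the genes were chosen, so nothing is read from them. The median difference over all genes was near 0 in each comparison, between -0.0045 and 0.0089.

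**Figure D2:**
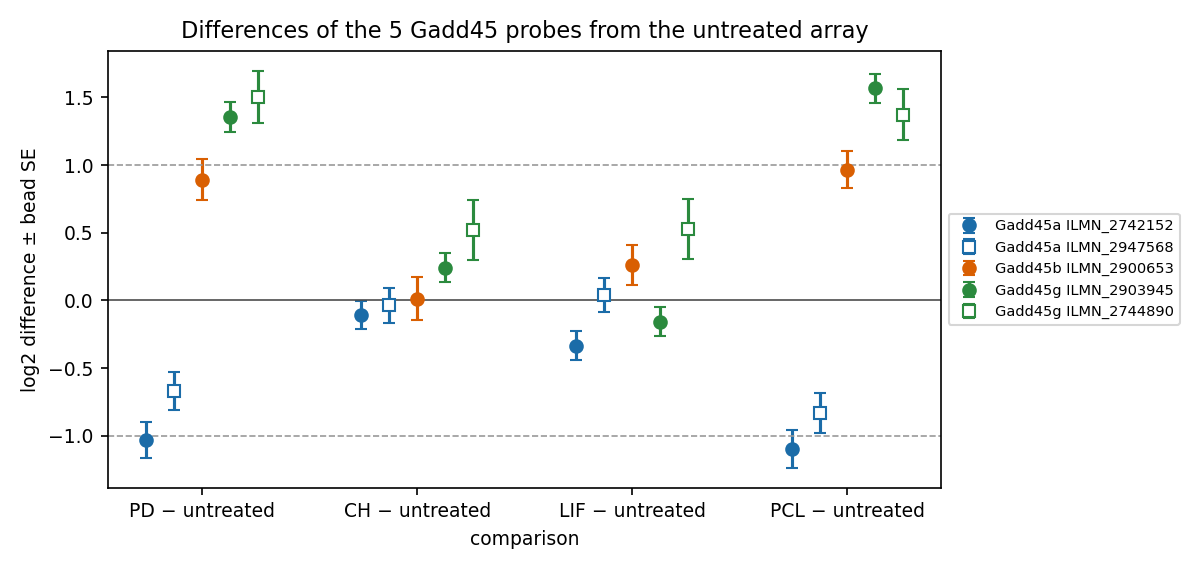
Log2 difference of each Gadd45 probe from the untreated array (y axis, ± bead-level SE) in the 4 comparisons (x axis). Filled circles are the probes used for the genes, open squares the other probes, and dashed lines mark 2-fold. The open Gadd45g squares are measured differences from an undetected reading. With PD and PCL Gadd45a lay below 0 and Gadd45b and Gadd45g above it, while with CH and LIF all probes stayed within 2-fold.

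The references other than the untreated array gave the same picture for PD. Gadd45a was lower with PD than with CH by -0.92 ± 0.15 and than with LIF by -0.70 ± 0.15. Gadd45b was higher with PD than with CH by 0.88 ± 0.15 and than with LIF by 0.63 ± 0.14, and Gadd45g by 1.11 ± 0.09 and 1.51 ± 0.09. Compared with CH and LIF, the PCL array, which also received PD, showed Gadd45a at -0.99 ± 0.16 and -0.76 ± 0.16, Gadd45b at 0.95 ± 0.13 and 0.70 ± 0.12, and Gadd45g at 1.32 ± 0.09 and 1.72 ± 0.09. These values belong to the arrays on which the genes were chosen, and the bead-level errors leave out the spread between cultures.

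The CH and LIF arrays were not part of the choice of the genes, and the effects of both agents were tested. The test also draws on the untreated, PD and PCL arrays, which were part of that choice. An additive limma model was fitted to 8353 genes over the 5 arrays, with 1 term for each agent and 1 residual degree of freedom. With no replicates, that residual only reflects how far the combined treatment strayed from additivity, and it was pooled over genes of like intensity. The p-values of the fit therefore weigh an effect against typical non-additivity. They do not weigh it against the spread between cultures, which was not measured. In the fit 1.56% of all genes passed for CH and 0.826% for LIF at an adjusted p under 0.05, and 0 of the 3 Gadd45 genes passed for either agent. At an unadjusted p under 0.05, 1 of the 6 tests did, Gadd45g with CH, where 11.6% of all genes did for CH and 7.08% for LIF. Its CH effect was 0.29 ± 0.13 (SE of the fit, limma adjusted p = 0.313, and 0.247 to 0.595 over the other settings), from the brighter probe alone. The other probe was at least 1.248-fold higher with CH than untreated, where it was not detected. That bound leaves out the bead error, and the scanner signal with CH was only 1.02 times the untreated one. This probe was not higher with PCL than with PD. The CH effects of Gadd45a and Gadd45b were 0.03 ± 0.12 (adjusted p = 0.946) and -0.06 ± 0.15 (adjusted p = 0.919). For LIF the effects were -0.19 ± 0.12 for Gadd45a (adjusted p = 0.845), 0.19 ± 0.15 for Gadd45b (adjusted p = 0.919) and -0.11 ± 0.13 for Gadd45g (adjusted p = 0.937). These results do not show that CH and LIF leave the genes as they are. With 5 arrays even effects well above their errors could fail to pass. Gadd45g with CH did so at 0.29 ± 0.13, and so did the p53 target Bbc3 with CH at -0.43 ± 0.13.

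The combination was also compared with the sum of its parts. On the log2 scale PCL departed from the summed differences of PD, CH and LIF by 0.38 ± 0.24 for Gadd45a, -0.20 ± 0.30 for Gadd45b and 0.12 ± 0.22 for Gadd45g. The median departure over the 6821 genes detected on all arrays was 0.262 in size, and 33.6% of them departed by at least as much as Gadd45a.

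The promoters of the genes are shown because the paralogs moved apart. They are the 250 bases before the annotated start in RefSeq (build GRCm38.p6), 5′ to 3′ on the strand of the gene, and all 3 genes were matched. Capitals mark the octamer ATGCAAAT (bound by POU factors such as Oct-1), the CCAAT box, the E-box CACGTG and the TATA box letters TATAAA, found on either strand.
Gadd45a, chr6:67037408-67037657, minus strand: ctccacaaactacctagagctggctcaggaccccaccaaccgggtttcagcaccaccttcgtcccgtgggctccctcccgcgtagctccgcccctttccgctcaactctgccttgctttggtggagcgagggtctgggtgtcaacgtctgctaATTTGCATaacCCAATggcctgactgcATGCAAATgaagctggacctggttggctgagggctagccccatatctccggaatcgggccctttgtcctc
Gadd45b, chr10:80929841-80930090, plus strand: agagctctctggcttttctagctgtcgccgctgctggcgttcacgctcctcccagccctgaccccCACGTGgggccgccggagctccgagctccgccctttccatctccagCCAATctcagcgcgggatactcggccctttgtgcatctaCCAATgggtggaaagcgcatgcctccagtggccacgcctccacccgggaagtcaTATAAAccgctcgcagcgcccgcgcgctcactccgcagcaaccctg
Gadd45g, chr13:51846425-51846674, plus strand: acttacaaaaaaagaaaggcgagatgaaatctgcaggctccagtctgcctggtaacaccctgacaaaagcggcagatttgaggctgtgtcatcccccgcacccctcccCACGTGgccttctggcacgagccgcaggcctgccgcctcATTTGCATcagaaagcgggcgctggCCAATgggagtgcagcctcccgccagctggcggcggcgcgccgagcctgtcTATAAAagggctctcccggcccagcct

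The CCAAT letters stood in all 3 promoters, in 33.8% of 32851 promoter windows of this length, a promoter with several matches counting once. The E-box was found in Gadd45b, beginning at base -185, and in Gadd45g, at base -142, against 6.02% of windows, and TATAAA in the same genes at -46 and -27, against 12.4%. Neither was found in Gadd45a. The octamer occurred 2 times in Gadd45a, at -97 and -70, and 1 time in Gadd45g, at -103, against 1.60% of windows. Of 7 other motifs searched on both strands, the EGR letters GCGNGGGCG were found in Gadd45b at -30 (4.70% of windows), overlapping none of the capitals. The cAMP response element TGACGTCA (1.55%), the ETS letters CCGGAAG (6.91%), the FOXO letters GTAAACA (3.17%), the STAT letters TTCNNNGAA (7.02%), the TCF letters CTTTGAT (3.21%) and the AP-1 letters TGANTCA (6.75%) were in none of the 3 windows. The motifs were picked after the sequences had been seen, and a match is a run of letters and not evidence of binding.

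The genes whose levels over the 5 arrays ran most like each member were found by the root-mean-square distance of centred log2 levels, searched over 6820 other genes detected on all arrays. The nearest to Gadd45a was Spry4, a feedback inhibitor of receptor tyrosine kinase signalling, at a distance of 0.077. It differed from untreated by -1.15 with PD and -1.17 with PCL. Next were the RNA-binding protein gene Rbm47 (0.093), the cytokine gene Il11 (0.102), the prostaglandin E synthase gene Ptges (0.119) and the protocadherin gene Pcdh1 (0.121).

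Gadd45b ran closest to Ccn2, a matricellular protein gene, at 0.047, which differed by 0.95 with PD and 0.89 with PCL. It was followed by the small heat shock protein gene Hspb1 (0.099), Dusp10 (0.109), a phosphatase of p38 and JNK, the F-box gene Fbxo15 (0.116) and the bZIP repressor gene Nfil3 (0.123). Gadd45g had no neighbour as close. Its nearest were the SoxB2 factor gene Sox21 (0.223), Klf2 (0.236), a Krueppel-like factor gene with 1.46 for PD and 2.16 for PCL, the small GTPase gene Rhob (0.263), the metalloproteinase inhibitor gene Timp3 (0.268) and the ETS factor gene Elf3 (0.272). Gadd45g itself was 0.361 from Gadd45b, at rank 1062 of the 6820 genes ordered by distance from Gadd45b. Ordered by distance from Gadd45a, Gadd45b (0.883) held rank 6803 and Gadd45g (1.16) rank 6816 of 6820. The distances describe 5 arrays that share 1 normalization, and they were computed on the same levels that chose the genes. Bead errors of single readings were 0.06 to 0.13 for Gadd45a and 0.07 to 0.11 for Gadd45b. The distances to their nearest genes are of like size, so the order of these neighbours is not settled.

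**Figure D3:**
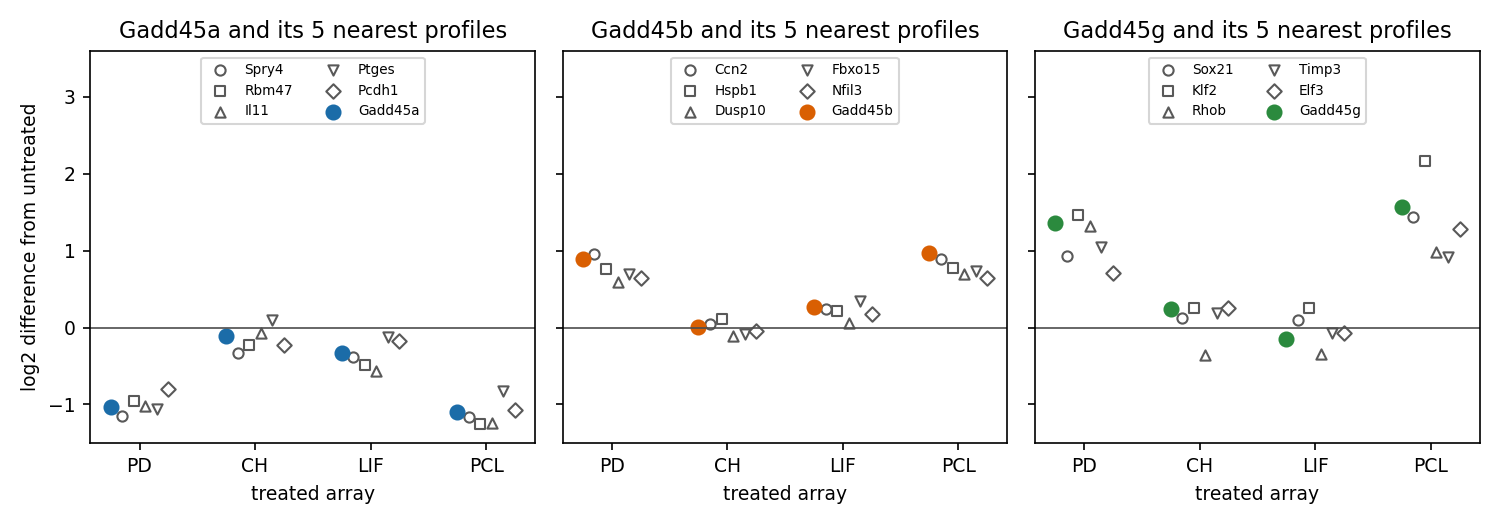
Log2 differences from the untreated array (y axis) on the 4 treated arrays (x axis) for each Gadd45 gene (filled) and the 5 genes with the nearest profiles (open symbols, shifted sideways). The 5 neighbours of Gadd45a were lower with PD and PCL, and those of Gadd45b and Gadd45g were higher there.

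Other genes of the same stress pathways were counted at the same 2-fold limit. The lists of binding partners and kinase effectors, p53 targets, ATF4 targets, transcription factors known to act on Gadd45 genes, and repair and demethylation partners held 71 genes, of which 63 had a probe. With PD 0 of the 51 detected were at least 2-fold higher and 1 was 2-fold lower, namely Egr1, which is itself an ERK target, against 0.145% and 0.66% of all genes. The same 2-fold limit was passed by 0 of 52 genes with CH, where 0.114% of 7882 genes were higher and 0.0761% lower. With LIF 1 of 52 was lower, again Egr1 (-1.30 ± 0.09), and 0 were higher, against 0.0638% and 0.0255% of 7838 genes. With PCL Stat3 (1.08 ± 0.13) was higher and Egr1 (-3.62 ± 0.11) lower among 53, against 0.372% and 0.77% of all genes. The genes that passed were Egr1 and Stat3 alone. With lists of this size the counts are too small to set against the shares of all genes, and they say nothing particular to the stress genes.

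Of the partners and kinase effectors, 9 were detected, with a median of 0.11 for PD. Cdkn1a, which encodes p21, read 9.79 untreated, 10.01 with PD, 10.16 with CH, 9.71 with LIF and 10.33 with PCL, so it was highest in the combination. Cdkn1a rose in the CH term (0.38 ± 0.11, limma adjusted p = 0.0449, and 0.0388 to 0.595 over the other settings). Pcna differed by 0.69 ± 0.26 with PD, on a probe that read only 5.14 untreated, where the lowest detected level was 4.89. The mitotic kinase gene Cdk1 differed by 0.04 ± 0.06 with PD and -0.41 ± 0.06 with PCL. The kinase gene Map3k4 and Gadd45gip1, whose product binds Gadd45 proteins, were not detected on any array.

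The 16 detected p53 targets had medians of 0.14 with PD and 0.02 with PCL, and ranged from -0.42 to 0.43 with PD. The most different were Cdkn1a, the PH-domain gene Phlda3 (0.43 ± 0.12 with PD and 0.50 ± 0.12 with PCL) and the Polo-like kinase gene Plk3 (-0.48 ± 0.16 with CH). The ATF4 and integrated stress response list had medians of 0.04 with PD over 14 genes and 0.21 with PCL over 15. Ddit4, an inhibitor of mTORC1 signalling, was higher by 0.63 ± 0.07 with PD and 0.93 ± 0.07 with PCL. The transcription factor gene Atf3, not detected on the untreated array, was at least 1.34-fold higher with PD and at least 1.28-fold higher with PCL.

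Ddit4 rose in the LIF term (0.39 ± 0.11, limma adjusted p = 0.0348, and 0.0396 to 0.752 over the other settings), and Phgdh, an enzyme of serine synthesis, was 0.39 ± 0.10 higher with LIF without passing. Among the transcription factors the LIF term of Stat3 rose (0.91 ± 0.13, limma adjusted p = 3.49e-09, and up to 0.752 over the other settings) and that of Egr1 fell (-0.50 ± 0.12, limma adjusted p = 0.00986, and 0.00107 to 0.860). For Egr1 the agents did not add up, with -1.30 ± 0.09 for LIF alone but -3.62 ± 0.11 for PCL beside -3.68 ± 0.13 for PD. The error of its LIF term is pooled over genes and does not carry this misfit. Like the others of the fit, these p-values leave out the spread between cultures. Wt1, not detected with PD, was at least 1.12-fold lower there than untreated. In all, of the 54 genes tested from these lists 1 rose and 0 fell with CH, and 2 rose and 1 fell with LIF, beside 1.56% and 0.826% of all genes passing in either direction. Of the 7 repair and demethylation partners detected, with a median of -0.06 for PD and -0.34 for PCL, the most different were the endonuclease gene Apex1 (-0.57 ± 0.09 with PCL), the damage sensor gene Xpc (-0.52 ± 0.12 with CH) and Ing1 (-0.41 ± 0.11 with PCL), whose product is known to bring Gadd45a to DNA.

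Targets of MEK and ERK were lower as a list, with a median of -0.77 for PD and 13 of 14 detected members below 0. The list was chosen with earlier results of these data known, so its counts are a description and not a test. With PD 5 of them were at least 2-fold lower, against the 0.66% of all genes, and with PCL 6 of 14. The 5 were Egr1, the ERK phosphatase genes Dusp4 (-2.24 ± 0.09 with PD) and Dusp6, Spry4 (-1.15 ± 0.21) and the ephrin receptor gene Epha2 (-1.36 ± 0.12). The ETS factor gene Etv1 joined them with PCL (-1.16 ± 0.11) after -0.92 ± 0.11 with PD.

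**Figure D4:**
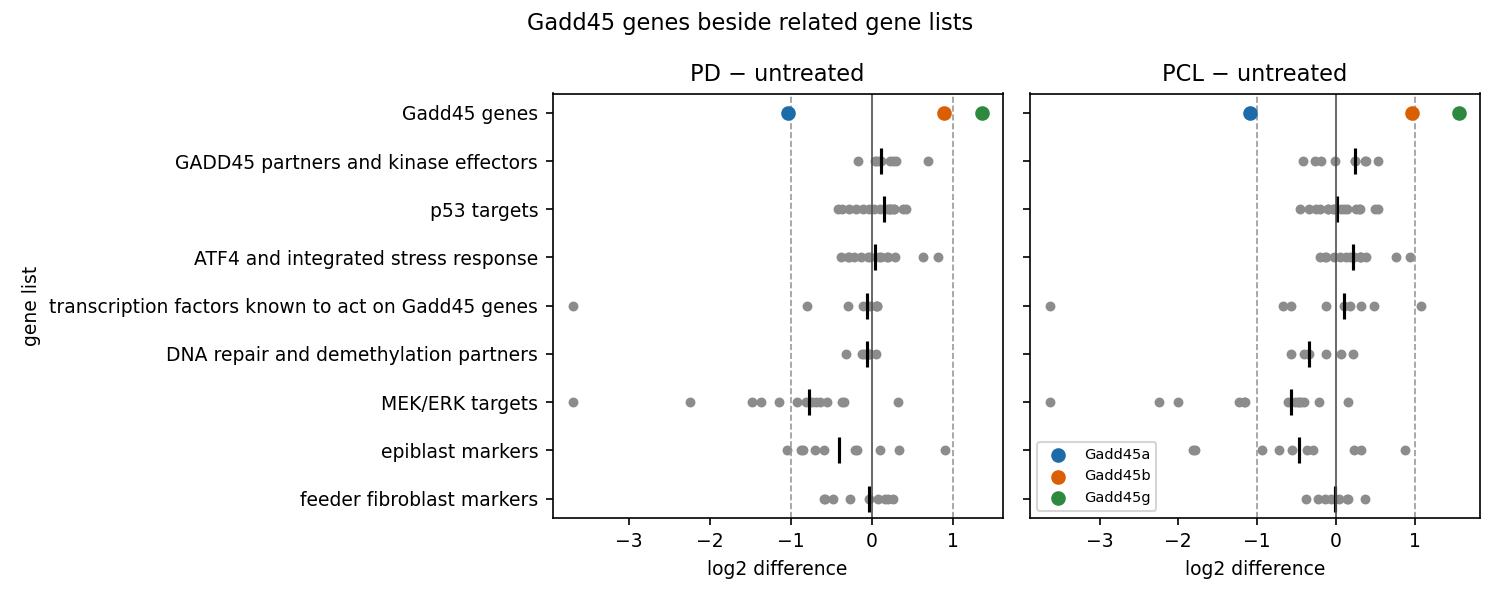
Log2 differences with PD (left) and PCL (right) against untreated (x axis) for the Gadd45 genes (coloured) and the detected members of 8 related lists (grey dots, 1 per gene, with the list median as a black bar). Dashed lines mark 2-fold, differences from undetected readings are drawn as measured, and of the 5 stress lists only Egr1 and, with PCL, Stat3 crossed them.

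Markers of both cell types were compared because the stem cells were grown over feeders, whose share of the RNA is not known. The summed intensity of 15 fibroblast markers, with the added constant taken off, was 5071 untreated, 5095 with PD, 5321 with CH, 4860 with LIF and 5372 with PCL. The sum includes the 6 markers that were not detected. Most of it came from the brightest, Acta2, smooth muscle actin, at a log2 level of 11.55 untreated and 0.20 ± 0.08 higher with PD. It therefore says little about the other markers. With PD 4 of the 9 detected markers were above 0 and 5 below, with a median of -0.04. The matrix genes Lum (-0.58 ± 0.13), Col6a1 (-0.58 ± 0.07) and Dcn (-0.48 ± 0.09) were lowest, and the surface protein gene Thy1 (0.26 ± 0.12) was highest. The summed intensity of 10 epiblast markers was between 22601 and 26021, most of it from Dnmt3b and Pou5f1. The median of the 10 markers was -0.40 with PD and -0.46 with PCL, where Fgf5 (-0.88 ± 0.09 and -1.79 ± 0.08), Pou3f1 (-1.04 ± 0.08 and -1.81 ± 0.11) and Otx2 (-0.21 ± 0.08 and -0.94 ± 0.07), genes of the primed state, were lower. The fall was not limited to these, as Sox2 (-0.85 ± 0.13 and -0.56 ± 0.14), Utf1 (-0.70 ± 0.11 and -0.72 ± 0.09) and Tdgf1 (-0.60 ± 0.17 and -0.37 ± 0.18) were lower too. Dnmt3b was slightly higher (0.10 ± 0.11 and 0.23 ± 0.11). Of the 10 markers 7 were below 0 and 3 above with either, and the pluripotency factor gene Nanog (0.90 ± 0.08 and 0.88 ± 0.08) was highest. The part of either cell type in the Gadd45 differences was not tested.

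**Figure D5:**
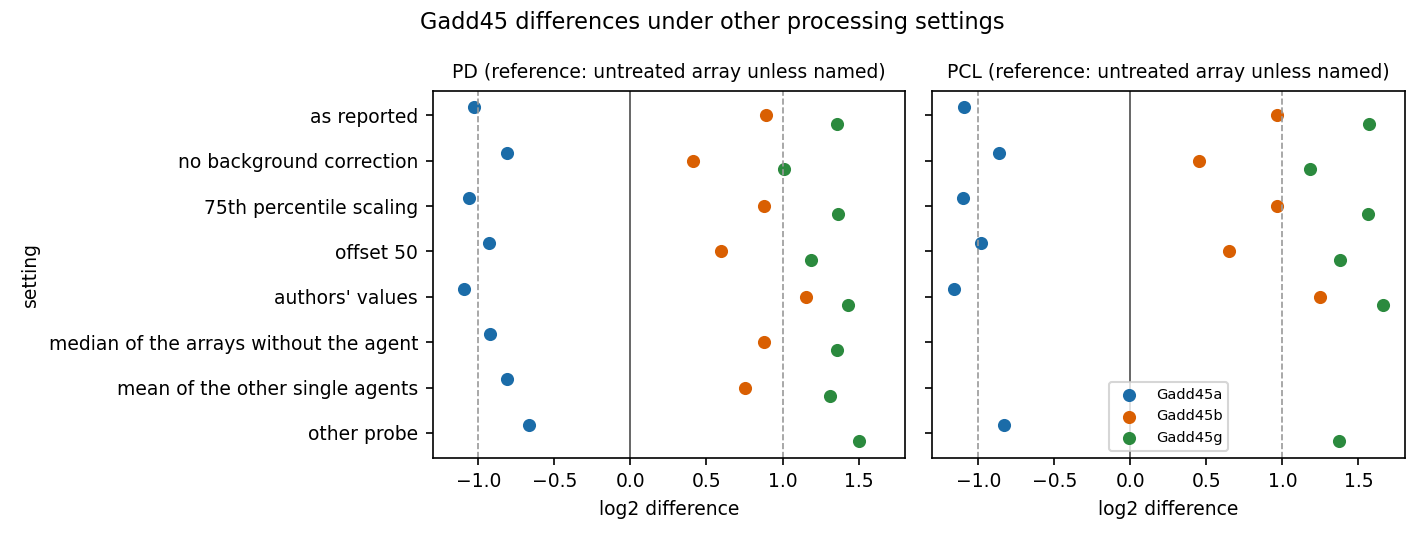
Log2 difference of each Gadd45 gene (x axis) with PD (left) and PCL (right) under each processing setting (y axis), with dashed lines at 2-fold. Gadd45a stayed below 0 and Gadd45b and Gadd45g above 0 in every row, and Gadd45b varied most, from 0.41 to 1.16 with PD.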

How the data were processed

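Total RNA of 5 cultures was measured on single-colour Illumina bead arrays, 1 per condition. Per the labels' protocols, 400 ng of RNA was amplified with 12 h of in vitro transcription and labelled with Cy-3. For every probe the deposited scanner output lists a linear intensity with its bead standard error and a detection p-value, per the file headers. BeadStudio is the tool that the submitters' processing notes name. Signals had a different median on each array and were taken as unnormalized. The authors' table of processed intensity values (whole numbers, median 65 per array, 12415 to 12429 empty cells, normalization not given in the sources used here) served as an alternative, where anything empty or below 16 was raised to 16.

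Signals were corrected with normexp (negative controls inferred from detection p-values, offset 16), quantile-normalized and taken to log2 with limma 3.58.1 in R 4.3.3. Detection required a p-value under 0.01. Symbols came from the platform annotation (23978 probes with 1 symbol, 0 with several, 1719 with none), 0 were updated through RefSeq, and the probe with the highest mean stood for a gene. Bead errors were carried through the normalization. The additive fit (lmFit, eBayes with trend, Benjamini-Hochberg) had infinite prior degrees of freedom, so genes of like intensity share a spread, and it was tested on simulated data. Precision is limited by having only 5 arrays.

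The members and lists were chosen with earlier results of these data known. Beside the members, genes were named that passed 2-fold in a list (otherwise its 3 most different), that check an agent, or that have the 5 nearest profiles. Alternatives concerned background, scaling, offset, reference, probe, detection limit, fold, trend and filter. No Gadd45 protein sequence was used.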

Additional observations from a re-analysis of the deposited data

How the results depend on the processing

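The signs of the PD and PCL differences of the 3 genes were the same under all settings run. Without background correction Gadd45b was 0.41 with PD and 0.45 with PCL, and Gadd45g 1.01 and 1.18. With an offset of 50 Gadd45b was 0.59 with PD and 0.65 with PCL, and in the authors' values it was 1.25 with PCL. The offset and the uncorrected background compress differences of dim probes by construction. The other Gadd45a probe gave -0.67 with PD. Directions were not stable for CH and LIF. Gadd45a with LIF was 0.24 against the mean of PD and CH and 0.0385 on the other probe, and Gadd45g with CH was -0.36 against the mean of PD and LIF, a reference that holds the PD array. None of the 6 CH and LIF effects of the members passed under any setting of the fit. In all genes the fit passed 130 for CH and 69 for LIF, 75 and 28 without the intensity trend, 51 and 43 without a detection filter, and 0 on the authors' values (674 and 473 at an unadjusted p under 0.05, limma). On the authors' values Cdkn1a, Ddit4, Stat3 and Egr1 therefore did not pass, and without the trend or without the filter all of these but Stat3 did not either. Cdkn1a also missed without background correction (adjusted p = 0.0503) and Ddit4 with 75th percentile scaling (0.423). Of the stress-list genes at 1.5-fold, 3 were higher and 2 lower with PD, 1 was lower with CH, 1 was higher with LIF, and 3 were higher and 2 lower with PCL. At 2-fold, 1 was higher with PD and 1 with LIF in the authors' values, 1 was higher with LIF when detected probes were averaged, and 0 were higher with PCL without background correction or with the offset of 50. The causes were not tested. One array per condition leaves variation between cultures unmeasured, and dim probes such as that of Gadd45b and the second of Gadd45g read close to background.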
